A study of Homo sapiens with 8 samples.

Results

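Depletion of RNF20 in human NTera2/D1 cells was examined at the level of single array probe sets, to ask whether it was accompanied by changed use of exons within genes. NTera2/D1 is an embryonal carcinoma line, a pluripotent tumour line that retinoic acid (RA) drives towards neural and other fates. Of the 8 arrays of the series, 7 were compared: 4 arrays of cells with small interfering RNA against RNF20 (siRNF20) and 3 of cells with small interfering RNA against the bacterial gene LacZ (siLacZ), the control. The siRNF20 arrays comprised DMSO and 10 µM RA, each as duplicates with the numbers GF117 and GF120; the siLacZ arrays comprised DMSO GF117, DMSO GF120 and RA GF120. Treatment lasted 72 h, with DMSO as the solvent control, and the labels call the duplicates biological. The arrays were chosen by their labels, with RA siLacZ GF117 left out because it stood apart from all others.

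RNF20 and its partner RNF40 make up the ubiquitin ligase of histone H2B, which they mark with a lone ubiquitin in transcribed genes. This mark accompanies elongating RNA polymerase II, and both the chromatin over a gene body and the speed of elongation are known to influence which exons a transcript keeps. Splicing is carried out by the core spliceosome, while SR proteins and hnRNP proteins bind nascent RNA and favour or repress single exons. Exon arrays read transcripts with several probe sets along each gene, so that an exon used more or less often appears as a probe set that departs from the rest of its gene.

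The array held 1384231 rows, of which 354600 carried a single gene symbol, for 19426 genes. Exon use was tested for 265022 probe sets in 14274 genes. These were the probe sets whose mean log2 intensity over the 7 arrays exceeded the median row, 3.97, in genes with 6 or more of them. The use of a probe set in an array is its log2 intensity minus the median of its gene's probe sets in that array. A use of 0 therefore marks a probe set as bright as the middle of its gene. A change of the same log2 size at every probe set of a gene cancels. Where a probe set does not follow a change of its gene, its use shifts the opposite way. Gene medians of the 7 arrays correlated with each other at 0.903 to 0.982, while the array left out correlated with them at 0.0757 to 0.191. All 9 markers of the line, among them LIN28A, NANOG and POU5F1, lay above the median row, at 6.92 to 11.71 in DMSO. The 7 markers of blood, liver, muscle, endothelial and squamous cells lay between 2.35 and 5.45, and 2 of them (KRT5 and MYH7) were above the median row on every array. RNA came from whole cultures, so that fewer cells of a type and less RNA per cell cannot be told apart. An array gives no read depth, so its precision rests on the number of arrays and on brightness.

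RNF20 itself fell in the siRNF20 arrays, and its signal was lower at nearly every probe set along the gene. Below, the 3 siLacZ values are given in the order DMSO GF117, DMSO GF120 and RA GF120, and the 4 siRNF20 values in the order DMSO GF117, DMSO GF120, RA GF117 and RA GF120. The gene median of RNF20 was 8.24, 8.10 and 8.10 in siLacZ and 6.48, 5.98, 6.27 and 5.89 in siRNF20 on the log2 scale. No siRNF20 array reached the siLacZ range. The difference was -1.97 (SE 0.17, 95% interval -2.34 to -1.60), a 3.92-fold lower level (limma, Benjamini-Hochberg adjusted p = 0.000601). RNF20 was the only gene called at the level of genes, 1 of 14274 or 0.00701%; with the GF number as a replicate block in the fit 44 genes passed. Without RA siLacZ GF120 the difference was similar, -1.94, but did not pass (limma, adjusted p = 0.0861). With DMSO arrays only, which do not include that array, 1 gene was called. Over all 18 alternatives of the RNF20 level the adjusted p ranged from 1.03e-06 to 0.800, the highest with all 8 arrays (-1.48).

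All 28 annotated probe sets of RNF20 were tested, and in 27 every siRNF20 array lay below every siLacZ array. Their log2 level differences ran from -2.995 to -0.52 with a median of -1.995. Without subtraction of the gene median, 16 probe sets of all 265022 passed at an adjusted p under 0.05 (limma, 0.00604%), and all 16 belonged to RNF20. The exception to the separation was the lowest-numbered probe set, 3182509. Its log2 intensity was 8.06, 7.64 and 7.33 in siLacZ and 6.99, 7.37, 6.78 and 7.28 in siRNF20, so that the groups overlapped. The next smallest fall among the 28 was -1.39. At the other end, probe set 3182539 read 7.42, 6.68 and 7.08 in siLacZ and 4.67, 2.95, 5.22 and 3.68 in siRNF20. The siRNF20 arrays differed among themselves by more than 2 units there.

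**Figure D1:**
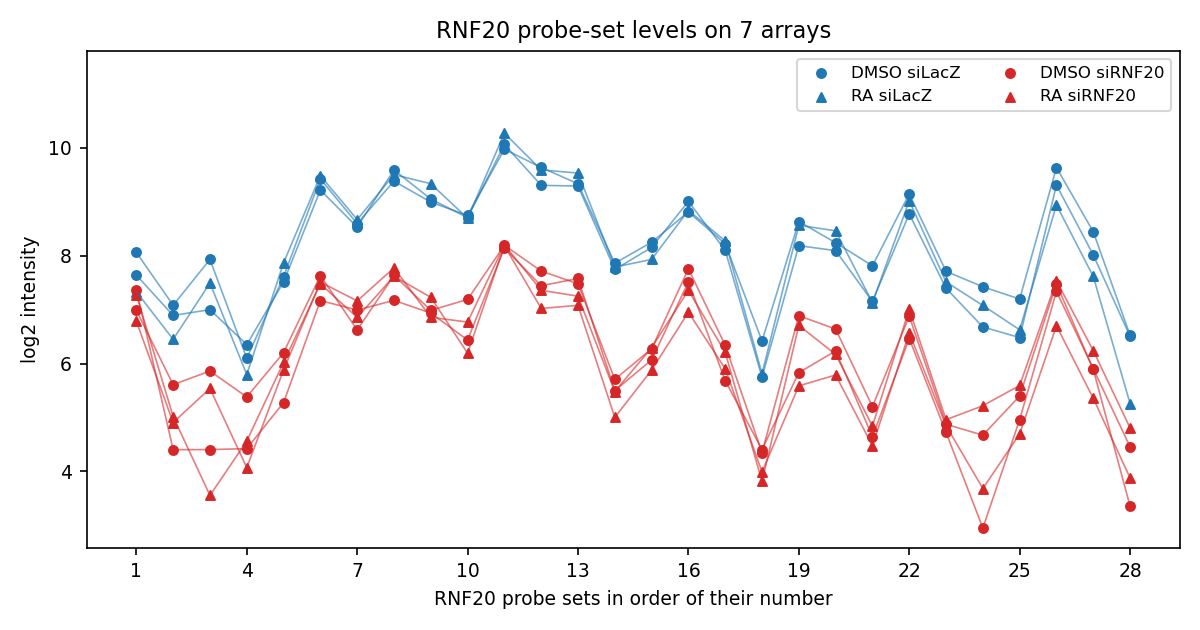
Log2 intensity (vertical axis) of the 28 RNF20 probe sets in order of their number (horizontal axis), with one line per array; blue marks siLacZ and red siRNF20, circles DMSO and triangles RA. The red lines lie below the blue ones at 27 probe sets and meet them at the first, where the fitted log2 difference was -0.52.

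Relative to the rest of RNF20, 5 of the 28 probe sets had an unadjusted p under 0.05, 2 with higher and 3 with lower use, against 5.03% of all probe sets tested (2.85% higher and 2.18% lower). The same number, 5, had use values that did not overlap between the groups, against 5.28% of all probe sets. None passed after adjustment over all probe sets. Use of 3182509 was -0.18, -0.46 and -0.77 in siLacZ and 0.51, 1.39, 0.52 and 1.39 in siRNF20. The difference in use was 1.45 (SE 0.28, 95% interval 0.82 to 2.08; limma, adjusted p = 0.918). This probe set therefore kept more of its signal than the other RNF20 probe sets did, and its own level was 0.52 lower on the log2 scale (log2 -0.52), not higher. Higher use was also measured at 3182531 (0.53, SE 0.15), in the middle of the numbering. The lower uses lay close together, at 3182536 (-0.55), 3182538 (-0.73) and 3182539 (-1.02). For the remaining 23 the 95% interval of the difference in use held 0, with SEs of all 28 between 0.13 and 0.50. The files give neither the position of a probe set nor the site of the small interfering RNA, so these differences were not tied to an exon.

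**Figure D2:**
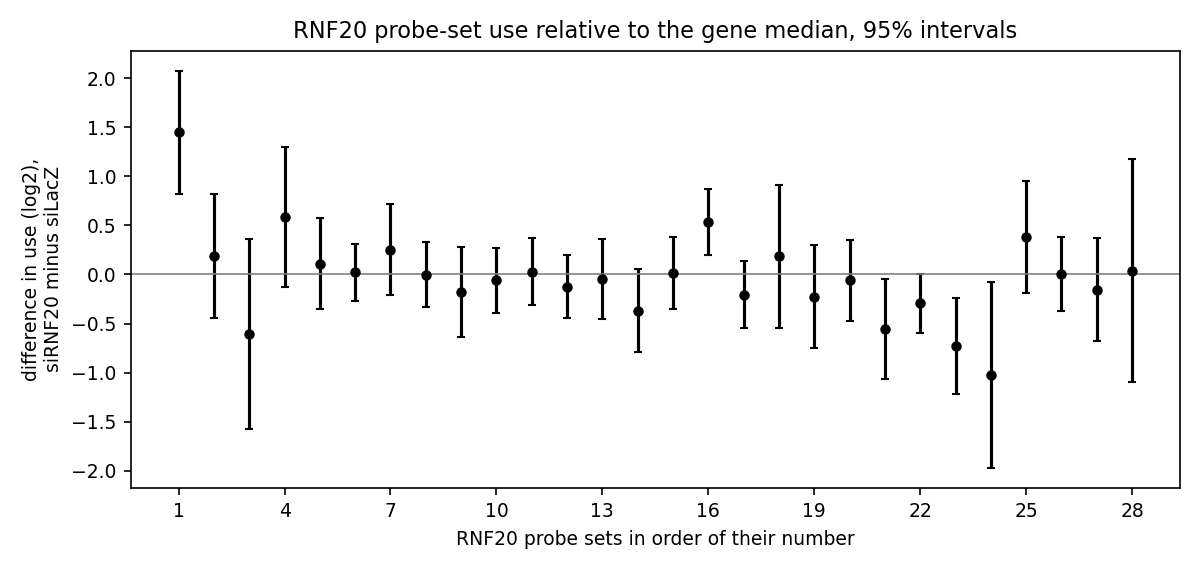
Difference in use (siRNF20 minus siLacZ, log2; points) with 95% intervals (bars) for the 28 RNF20 probe sets in order of their number. The first probe set stands at 1.45, and the intervals of 23 probe sets cross 0.

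Across all genes no change of exon use passed the test. In siRNF20 against siLacZ, 0 of 265022 probe sets (0%) had an adjusted p under 0.05, and the smallest adjusted p was 0.918 (limma, treatment as covariate). At an unadjusted p under 0.05 there were 13322 (5.03%), of which 7555 had higher use (2.85%) and 5767 lower use (2.18%). That number depended on the fit. It was 5436 without RA siLacZ GF120, 5461 with DMSO arrays only and 22286 with the GF number as a replicate block. In 13988 probe sets (5.28%) the 4 siRNF20 and the 3 siLacZ arrays did not overlap. By genes, 7201 of 14274 (50.4%) held at least 1 probe set with an unadjusted p under 0.05. That share followed the number of probe sets per gene, from 31.5% of genes with 6 to 10 to 83% of genes with 41 or more.

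The precision of these differences depended on brightness. The median half-width of the 95% interval of a difference in use was 0.49 on the log2 scale over all probe sets. It was 0.86 in the dimmest quartile (mean log2 intensity 3.97 to 5.62), 0.55 and 0.39 in the middle quartiles, and 0.30 in the brightest (8.20 to 13.67). The whole interval lay within 1 log2 unit of 0, a 2-fold change, for 75.5% of probe sets, from 30.4% in the dimmest quartile to 97.7% in the brightest. Fitted differences beyond 1 log2 unit were found in 2969 probe sets (1.12%). Of these 2573 were in the dimmest quartile and 40 in the brightest. For most dim probe sets the interval therefore reached beyond a 2-fold change. The intervals are not adjusted for the number of probe sets tested, so larger changes could also go uncalled. BAIAP2 3737751 differed by 2.78 and TUBGCP3 3526188, of the brightest quartile, by -1.01. Neither passed (limma, adjusted p = 0.918 for both).

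**Figure D3:**
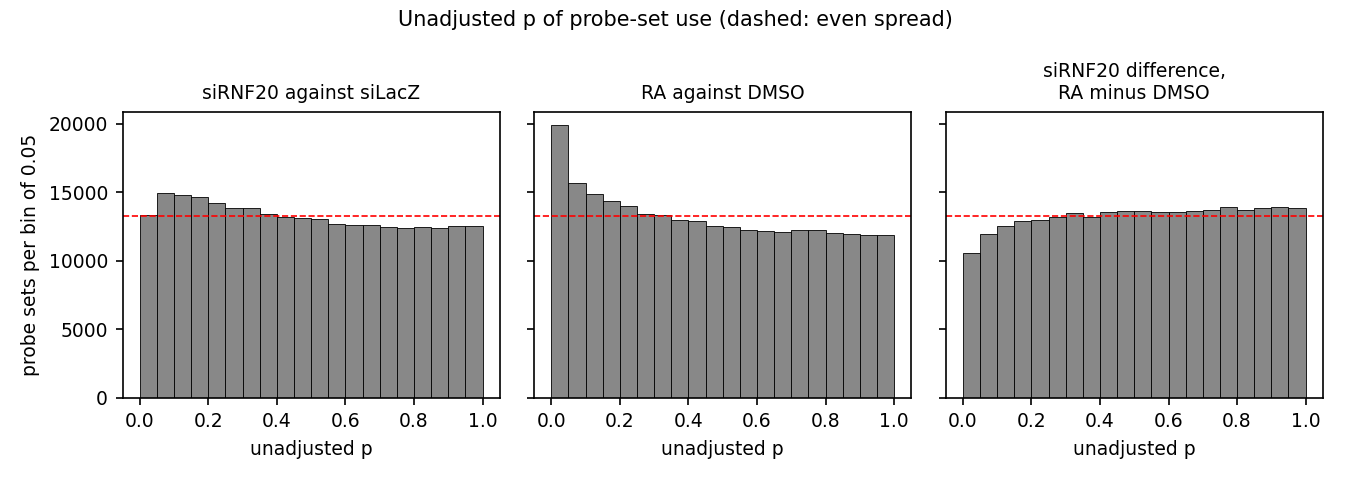
Number of probe sets (vertical axis) by unadjusted p in bins of 0.05 (horizontal axis) for siRNF20 against siLacZ, RA against DMSO, and the difference of the siRNF20 effect between RA and DMSO; the dashed line marks an even spread. The lowest bin holds 13322, 19884 and 10570 probe sets.

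The 6 probe sets of smallest p with higher use and the 6 with lower use, each with one sign throughout, are described although none passed (adjusted p = 0.918 for each). In 10 of these 12 the use values of the groups did not overlap, against 5.28% of all probe sets. The 12 were chosen by small p and one sign, which favours separated groups, so this count is no separate evidence. BAIAP2, which encodes a scaffold linking membrane curvature to actin, had the widest difference. Use of its probe set 3737751 was -2.76, -2.36 and -3.94 in siLacZ and -0.67, 0.58, -0.50 and -1.05 in siRNF20. The difference was 2.78 (SE 0.40, 95% interval 1.87 to 3.68). In siLacZ the probe set itself read 3.64, 3.88 and 2.86, below the median row of 3.97, so the control values are dim and no fold is given. MAP1S encodes a microtubule-associated protein, and its probe set 3824518 had a use of -0.90, -0.97 and -1.23 in siLacZ and 0.24, 0.29, -0.35 and 0.03 in siRNF20. The difference was 1.15 (SE 0.16, 2.21-fold), while the gene median of MAP1S differed by -0.05 (95% interval -0.34 to 0.24). The groups were apart at the probe set and overlapped at the gene median.

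GATM encodes the enzyme that starts creatine synthesis. Its probe set 3622404 had a use of 1.10, 1.17 and 1.24 in siLacZ and 2.18, 1.98, 1.88 and 2.23 in siRNF20, a difference of 0.90 (SE 0.13). TEF, a circadian transcription factor of the bZIP class, had a use of 3.92, 4.12 and 4.19 against 4.95, 4.77, 4.79 and 4.94 at probe set 3946828 (0.78, SE 0.11). NFKB2, a subunit precursor of NF-kappaB, had a use of 1.88, 1.81 and 1.86 against 2.54, 2.68, 2.52 and 2.74 at probe set 3261674 (0.77, SE 0.11). In these 3 genes the spread within each group was under 0.4 log2 units and the groups were apart in both treatments. STARD10 encodes a phospholipid transfer protein. Its probe set 3381354 had a use of 5.39, 5.81 and 3.89 against 6.35, 6.53, 4.88 and 4.88, so that the pooled groups overlapped and separated only within each treatment (0.90, SE 0.12). The level of that probe set was nearly the same in both groups (difference 0.13), and the gene median of STARD10 was lower in siRNF20 by -0.77 (limma, adjusted p = 0.403, from 0.0471 to 1.00 over the alternatives).

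Lower use was led by TUBGCP3, a component of the gamma-tubulin complex that nucleates microtubules. Probe set 3526188 had a use of 3.33, 3.21 and 4.01 in siLacZ and 2.26, 2.52, 2.76 and 2.87 in siRNF20 (-1.01, SE 0.12). No other probe set tested had a smaller p. The same probe set fitted a level difference of -0.40 and the gene median one of 0.62, so that the difference in use combined both. FRY, a large protein of mitotic microtubules, had a use of 0.73, 0.26 and 0.77 against -1.15, -2.0, -1.81 and -1.72 at probe set 3484528. The difference was -2.26 (SE 0.37) in a gene whose median differed by -0.14. TXNL1, a thioredoxin-like protein bound to the proteasome, had a use of -1.94, -2.13 and -1.06 against -4.64, -3.81, -2.91 and -3.46 at probe set 3809382 (-2.17, SE 0.37). In FRY and in TXNL1 the siRNF20 values of these probe sets went down to 2.995 and 2.97 on the log2 intensity scale, below the median row.

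SNX14, a sorting nexin of the endoplasmic reticulum, had a use of 1.70, 1.44 and 1.59 against 0.90, 0.92, 0.86 and 0.99 at probe set 2963357 (-0.66, SE 0.12). The 4 siRNF20 values lay within 0.2 log2 units. The linker histone gene H1-7 had a use of 1.25, 0.76 and 1.74 against 0.21, 0.16, 0.55 and 0.45 at probe set 3413461 (-0.99, SE 0.18). The gene median of H1-7 differed by 0.69 and the probe set itself by -0.30. GFRA1, the receptor subunit for the neurotrophic factor GDNF, had a use of 4.05, 4.09 and 2.97 against 3.28, 3.09, 2.42 and 2.30 at probe set 3308341 (-0.78, SE 0.11). As in STARD10 the groups overlapped when treatments were pooled. GFRA1 was 3.84 higher with RA at the level of the gene (log2, adjusted p = 8.20e-07), so that its use values shifted with treatment as well.

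**Figure D4:**
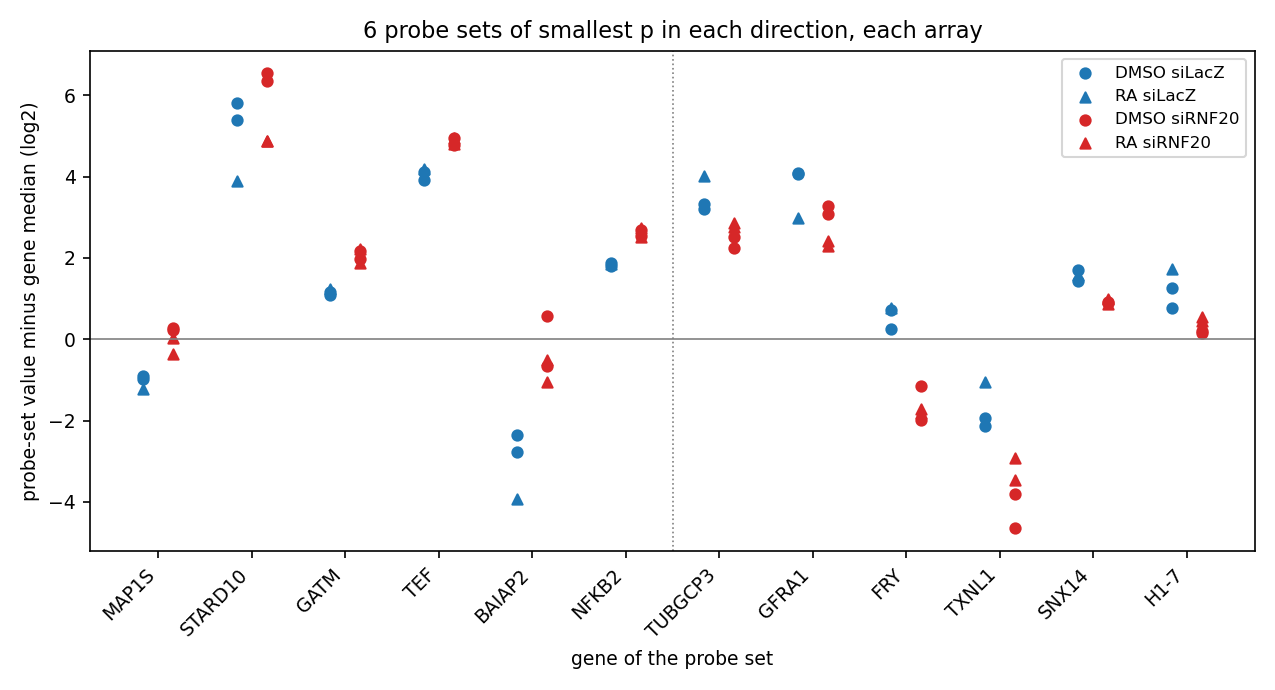
Use (log2, relative to the gene median; vertical axis) of the 12 probe sets on each array, by gene; 6 with higher use in siRNF20 stand left of the dotted line and 6 with lower use right of it. Blue marks siLacZ, red siRNF20, circles DMSO and triangles RA; the groups overlap for STARD10 and GFRA1.

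In the machinery of H2B ubiquitylation apart from RNF20, 0 probe sets passed adjustment in the limma fit of single probe sets. Of its other 29 genes with 695 probe sets, 15 probe sets had higher and 12 lower use at an unadjusted p under 0.05 (3.88%, against 5.03% of all). limma's diffSplice, a test that pools the spread within a gene and is described further on, called 1 probe set in each of 3 of these genes: SUPT16H 3556366 (1.22, adjusted p = 0.0119), BRCA1 3758345 (-1.24, adjusted p = 0.0228) and WAC 3240425 (1.20, adjusted p = 0.0427). With RNF20 included, 4 of 30 genes (13.3%) held such a call, against 4.03% of all genes tested. In a list of reference genes described below it was 21.7%. RNF40, the ligase partner, read 7.47, 7.28 and 7.49 in siLacZ and 7.40, 7.39, 7.74 and 7.48 in siRNF20 at the level of the gene. Its difference was 0.06 (95% interval -0.24 to 0.37), and 0 of its 35 probe sets had an unadjusted p under 0.05. SUPT6H, a histone chaperone that travels with RNA polymerase II, had 8 of 45 probe sets at an unadjusted p under 0.05. The strongest, 3715729, had a use of 0.18, 0.50 and 0.20 against 0.62, 0.80, 0.65 and 0.91 (0.45, SE 0.14). USP36, a deubiquitylase of the nucleolus, differed by 0.62 (SE 0.20) at probe set 3772648. MDM2, the ligase that targets p53, was 0.44 lower at the level of the gene (log2 -0.44, adjusted p = 0.490), and USP44, which removes ubiquitin from H2B, differed by 0.32 (95% interval -0.03 to 0.66).

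Genes of the splicing apparatus were examined both for their level and for the use of their own probe sets. At the level of genes, 519 of 14274 (3.64%) were higher and 653 (4.57%) lower at an unadjusted p under 0.05, and the median difference was -0.03. Among 24 hnRNP genes, 7 were higher and 0 lower at that threshold, with a median of 0.17. None passed adjustment. HNRNPM, a regulator of exon skipping, read 10.25, 10.11 and 9.76 in siLacZ and 10.42, 10.28, 10.48 and 10.43 in siRNF20, so that every siRNF20 array was higher (0.38, SE 0.13, adjusted p = 0.532). HNRNPA3 (0.29) and TARDBP (0.32), which encodes the RNA-binding protein TDP-43, had adjusted p of 0.580 and 0.582. RA siLacZ GF120 was the lowest siLacZ array for HNRNPM and HNRNPA3. Without that array the hnRNP median was 0.04, with 1 gene higher at an unadjusted p under 0.05, and without any 1 of the other arrays 3 to 8 genes were. The hnRNP median was 0.17 with quantile normalization, 0.16 with an offset of 16, 0.08 with the gene mean (5 genes higher, 1 lower) and 0.05 with DMSO arrays only (1 higher), and 2 genes were higher without the intensity trend.

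Use within hnRNP genes was lower at 34 and higher at 9 of 604 probe sets at an unadjusted p under 0.05 (7.12%). TARDBP 2320066 had a use of 2.52, 2.22 and 2.12 against 1.85, 1.79, 1.85 and 1.86 (-0.44, SE 0.11), and HNRNPA3 2517335 one of 0.70, 0.68 and 0.91 against 0.08, 0.46, 0.50 and 0.63 (-0.39, SE 0.12). Both probe sets lie above their gene's median, in genes whose median was higher in siRNF20. Their own levels differed by -0.12 and -0.10 only. HNRNPA1 3416504 went the other way (0.57, SE 0.17), with overlapping groups. PCBP2, also of this family, had 6 of 32 probe sets at an unadjusted p under 0.05, the most of the family.

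SR proteins and SR-related factors, which mostly favour the inclusion of exons, had 13 higher and 14 lower of 574 probe sets (4.70%) in 23 genes. Their median level difference was -0.05. RSRC1 was lower at the level of the gene (7.77, 7.52 and 7.83 against 7.42, 6.97, 7.66 and 7.06; -0.46, adjusted p = 0.592), with overlapping groups. SRRM2, a scaffold of nuclear speckles, had a use of -2.10, -1.60 and -1.70 against -1.31, -1.16, -1.48 and -1.19 at probe set 3645254 (0.51, SE 0.17). SRSF7 2548976 differed by 0.54 (SE 0.18), and its siLacZ values of 0.02, -0.12 and -0.94 were themselves spread over about 1 log2 unit.

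In a list of splicing regulators, many but not all of them restricted to some tissues, 6 of 35 genes were lower and 0 higher at an unadjusted p under 0.05, none called. MBNL3, a muscleblind protein, read 5.88, 6.76 and 6.75 against 5.35, 5.62, 6.12 and 6.28 (-0.72, SE 0.21, adjusted p = 0.490), with overlapping groups. RBM38 read 8.09, 7.92 and 8.42 against 7.69, 7.69, 7.85 and 7.86, every siRNF20 array being lower (-0.41, SE 0.13, adjusted p = 0.520). PTBP2, the repressor of neuronal exons, differed by -0.35 (adjusted p = 0.552). The other 3 were ELAVL1 (-0.55), CELF2 (-0.42) and MSI1 (-0.33). Without RA siLacZ GF120, 2 of the family were lower and 1 higher at that threshold.

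Within these genes 29 probe sets had higher and 16 lower use out of 654 (6.88%). ELAVL4, a neuronal RNA-binding protein, had a use of 1.94, 1.88 and 1.94 at probe set 2335678 in siLacZ and 2.86, 2.59, 2.92 and 3.27 in siRNF20. The difference was 0.95 (SE 0.17, 1.93-fold). CELF5, of a family that regulates muscle and brain exons, had a use of 0.92, 1.57 and 0.86 against 2.06, 2.26, 1.95 and 2.43 at probe set 3816885 (1.08, SE 0.21). QKI, an RNA-binding regulator with several isoforms of different tails, went lower at probe set 2935578, from 1.26, 1.45 and 1.90 to 0.95, 0.95, 0.59 and 0.66 (-0.75, SE 0.18). In QKI 8 of 19 probe sets had an unadjusted p under 0.05. In all 3 genes the groups did not overlap at the probe set given, which was chosen for its small p.

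The core spliceosome had 18 higher and 29 lower of 1167 probe sets (4.03%) in 49 genes. At the level of genes, 3 were higher and 0 lower at an unadjusted p under 0.05, namely the Sm protein genes SNRPD1 (0.40) and SNRPF (0.46) and PRPF31 (0.36), a factor of the U4 particle. SNRPF read 8.60, 8.505 and 7.38 in siLacZ and 8.56, 8.62, 8.56 and 8.38 in siRNF20, so that RA siLacZ GF120 alone lay apart. Without that array 0 genes of the list were higher at that threshold, and without any 1 of the others 1 to 5 were. DHX38, a helicase of the second splicing step, had a use of 0.50, 0.72 and 0.96 against 1.25, 1.49, 1.36 and 1.15 at probe set 3667928 (0.58, SE 0.15). SF3B4 had 4 of 13 probe sets and PRPF3 6 of 28 at an unadjusted p under 0.05; use was lower with groups apart at their probe sets of smallest p, 3541040 (-0.49, SE 0.13) and 2358176 (-0.35, SE 0.10). In genes of cleavage and polyadenylation, which set the end of the transcript, 14 probe sets were higher and 5 lower of 511 (3.72%). RBBP6 3653372 differed by 0.61 (SE 0.14), PAPOLA 3550426 by -0.65 (SE 0.21) and CPSF6 3421489 by 0.38 (SE 0.13). At the level of genes RBBP6 (-0.29) was the only one of 20 with an unadjusted p under 0.05.

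Genes with well-known alternative exons held a share of low p values near that of all probe sets. Of 2796 probe sets in 80 such genes, 77 were higher and 45 lower at an unadjusted p under 0.05 (4.36%, against 5.03%), and 0 passed adjustment in the limma fit of single probe sets. diffSplice called a probe set in 13 of the 80 genes, 16.2% against 4.03% of all genes tested. The 13 were FLNA, ARHGAP21, CLTC, TJP1, DNMT3A, NCAM1, ITGB1, AGRN, TCF7L2, MEF2A, PTPRF, TCF3 and ITGA6. These 80 genes hold more probe sets per gene than all 14274 genes with their 265022. A share by genes does not allow for that. In a list of reference genes described below the share was 21.7% (5 of 23). APP, the amyloid precursor gene, had a use of -3.78, -3.50 and -4.35 against -3.08, -3.15, -3.33 and -3.17 at probe set 3927227 (0.76, SE 0.16). That probe set is among the dim ones of a very bright gene, whose median was 11.41 to 11.74 on the log2 scale. TCF3, known for a pair of mutually exclusive exons, had a use of -1.55, -1.24 and -2.11 against -0.86, -0.70, -1.04 and -0.89 at probe set 3845415 (0.83, SE 0.18). MACF1, a giant linker of actin and microtubules, had 10 of 142 probe sets at an unadjusted p under 0.05, and its strongest, 2331219, differed by 1.23 (SE 0.32). In all 3 the siRNF20 arrays were above every siLacZ array at these probe sets, which were chosen for their small p. At the level of genes FN1, which encodes fibronectin, read 9.64, 8.89 and 9.05 against 10.04, 9.82, 9.99 and 9.61 (0.70, SE 0.17, adjusted p = 0.375, from 0.0331 with the GF number as a block to 1.00 over its alternatives). DNMT3B differed by 0.48 and ANK2 by -0.63 (adjusted p = 0.490 for both).

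Genes that answer RA, and genes of pluripotency, move with treatment in this line and were read with treatment in the fit. In 26 direct RA targets and HOX genes 20 probe sets had higher and 11 lower use of 347 (8.93%), with 0 called. HOXA5 3042855 had a use of 3.42, 3.88 and -0.28 in siLacZ and 5.45, 4.96, -0.05 and 0.36 in siRNF20 (1.11, SE 0.26). The gene median of HOXA5 was 4.03, 3.88 and 8.69 against 1.85, 3.06, 8.22 and 8.27. In DMSO, where the use difference was largest, the gene median lay near or below the median row. HOXB3 3761318 (0.47, SE 0.14) and STRA6 3632833 (0.56, SE 0.16) also differed with overlapping groups. The levels of the HOXA5 and HOXB3 probe sets themselves differed by only 0.028 and 0.075, and their gene medians by -1.08 and -0.40. In STRA6 the probe set differed by 0.48 and the gene median by -0.08. At the level of genes 6 of the 26 were lower and 1 higher at an unadjusted p under 0.05, among them CYP26B1, which degrades RA (-0.94, adjusted p = 0.573), and the retinal reductase gene DHRS3 (-0.39, adjusted p = 0.563). The list median was -0.20, and it was 0.31 without the treatment term. Without RA siLacZ GF120 it was -0.002, with 1 gene lower and 0 higher; 2 to 6 were lower without any 1 of the other arrays.

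Of 21 pluripotency genes with 283 probe sets, 8 probe sets had higher and 6 lower use (4.95%). LIN28A, the repressor of let-7 maturation, had a use of -3.84, -4.67 and -5.27 against -3.77, -3.71, -3.33 and -3.61 at probe set 2326494 (1.02, SE 0.29). The siLacZ values there were spread over more than 1 log2 unit. L1TD1 2339340 differed by 0.68 and SOX2 2654507 by -0.38. At the level of genes 4 were higher and 0 lower at an unadjusted p under 0.05, or 2 higher and 1 lower without RA siLacZ GF120 and 2 to 6 higher without any 1 of the other arrays. DPPA4, a nuclear protein of pluripotent cells, read 8.98, 8.99 and 8.16 against 9.53, 9.58, 9.04 and 8.66 (0.62, SE 0.13, adjusted p = 0.269, from 0.0364 to 1.00 over its alternatives). GDF3, a ligand of the TGF-beta family, differed by 0.37 (adjusted p = 0.592).

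Interferon response genes had 8 higher and 3 lower of 269 probe sets (4.09%), with 0 of 18 genes at an unadjusted p under 0.05 at the level of the gene. IFIH1 2584238 (1.52), IRF7 3358196 (1.30) and IRF9 3529710 (-1.55) gave large differences with SEs of 0.41, 0.37 and 0.48, at mean log2 intensities of 4.14, 5.52 and 4.44. Reference genes, which most cells express strongly, had 17 higher and 18 lower of 486 probe sets (7.20%). B2M, the light chain of MHC class I, held 10 of its 16 probe sets at an unadjusted p under 0.05. Its gene median was 7.48, 7.42 and 6.39 against 7.80, 8.16, 7.62 and 7.79 (0.84, SE 0.18, adjusted p = 0.316, from 0.0376 with the GF number as a block to 1.00 over its alternatives), and its probe set 3592042 had a use of -2.46, -1.75 and -1.38 against -3.04, -3.43, -3.61 and -3.45. GAPDH 3402628 (-0.48, SE 0.13) and HSP90AB1 2908511 (0.63, SE 0.16), named for their small p in the list, differed as well. The share of 7.20% in this list, against 5.03% of all probe sets, includes the 10 of B2M.

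**Figure D5:**
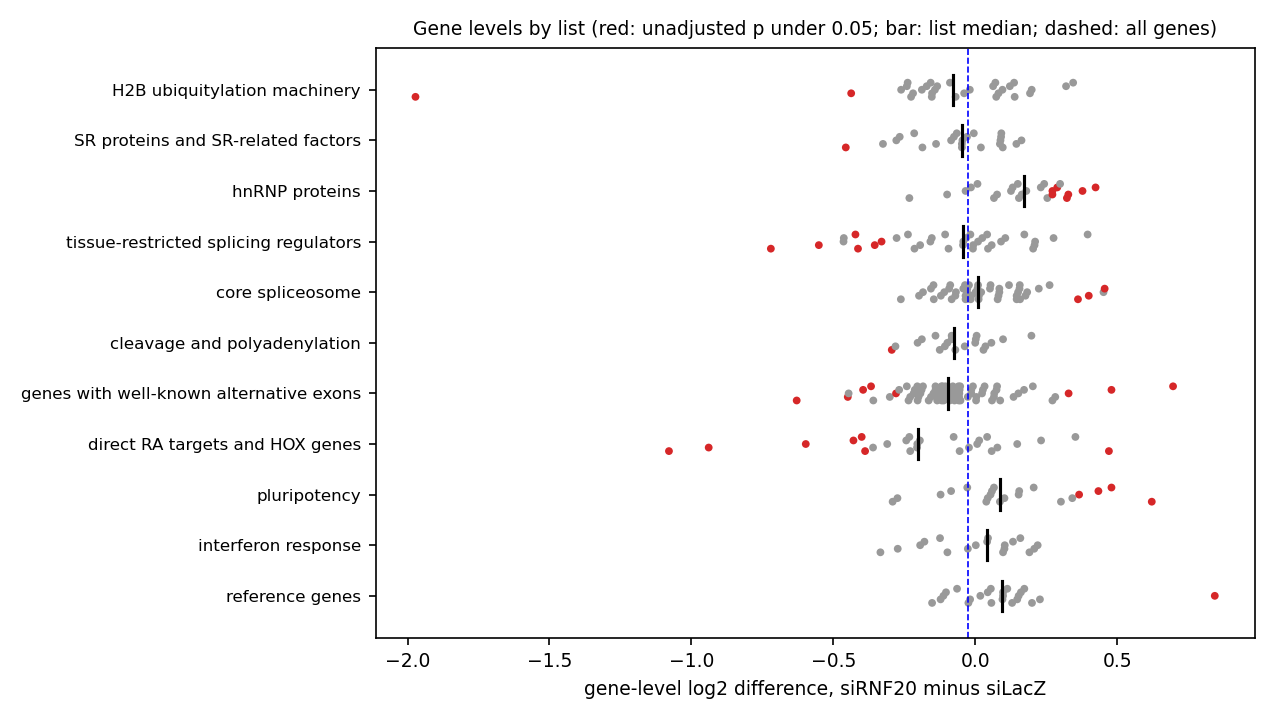
Gene-level log2 difference (siRNF20 minus siLacZ; horizontal axis) of each member of 11 gene lists; red points have an unadjusted p under 0.05, black bars give list medians and the dashed line the median of all genes. RNF20 at -1.97 lies apart, and 7 of 24 hnRNP genes are red on the higher side.

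Low p values in use were not spread evenly over the genes. Probe sets more than 1 log2 unit above their gene's median had an unadjusted p under 0.05 in 8.5% of cases, those within 1 unit in 4.08% and those more than 1 unit below in 5.39%. In genes whose level was lower at an unadjusted p under 0.05, 8.33% of probe sets had higher and 1.24% lower use. In genes whose level was higher, 1.07% had higher and 10.0% lower use. The use of a probe set thus ran opposite to the level of its gene, as it did in TUBGCP3, STARD10, H1-7 and TARDBP above. The gene median enters both quantities, and its part in these counts was not tested. With genes limited to those whose median differed by less than 0.25 log2 units, 0 probe sets passed and 9015 had an unadjusted p under 0.05. Fewer probe sets were counted there, so 9015 cannot be set against the count over all genes.

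Some genes held many low p values, and those named here were chosen after their values were seen. SDK1, a cell adhesion molecule of synapses, had 21 of 65 probe sets at an unadjusted p under 0.05, 14 higher and 7 lower, with a gene-level difference of -0.72. MUC4, a membrane mucin, had 20 of 108, and the imprinted gene SNRPN had 16 of 107 (5 higher and 11 lower). In CTSB, a lysosomal protease, all 15 of 34 were lower, and in SLC12A2, an ion cotransporter, all 13 of 34. Subtraction of the gene mean in place of the median gave 7 in CTSB, 3 higher and 4 lower, and 1 in SLC12A2, which was higher, so that the shared direction was not kept in either gene; SDK1 then had 22, 11 higher and 11 lower. The smallest adjusted p in each of these 5 genes was 0.918. Where a probe set had an unadjusted p under 0.05, the next one by number in the same gene had one too in 12.2% of cases, and in 9.93% with the gene mean, against 5.03% and 5.04% of all.

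RA had more calls of use than siRNF20 in the same fit. The treatment term called 542 probe sets (0.205%) in 293 genes, 235 with higher and 307 with lower use, and 7.50% of probe sets had an unadjusted p under 0.05. Of the 293 genes, 256 were also called for RA at the level of the gene, against 2235 of all 14274 genes tested. The gene median enters both use and level, and its part in these calls was not tested. Every array weighed on the count of 542: 22 probe sets passed without RA siLacZ GF120, and 175 to 292 without any 1 of the other 6. The count was 2 with all 8 arrays.

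Whether the siRNF20 difference in use was the same in RA and in DMSO was asked with the difference of the differences. None of 265022 probe sets passed (0%; 10570 or 3.99% at an unadjusted p under 0.05, limma). The smallest p belonged to SAR1A 3293248, in a gene for a GTPase of COPII vesicles. Its use was 0.00, 0.00 and -2.47 in siLacZ and -0.09, -0.03, 0.00 and -0.22 in siRNF20. The difference of 2.42 (SE 0.26, adjusted p = 1) thus came from RA siLacZ GF120, the only array of its group.

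The balance of signal along genes overlapped between the groups. In 11425 genes probe sets were split by number, in transcript direction, into 3 equal parts; the mean use of the third towards the end was set against the third at the start, and the median over genes was taken in each array. These medians were -0.079, -0.123 and -0.212 in siLacZ and -0.125, -0.126, -0.060 and -0.188 in siRNF20 on the log2 scale. The groups overlapped. The mean was -0.138 ± 0.068 (SD, n = 3) in siLacZ and -0.125 ± 0.053 (SD, n = 4) in siRNF20, a difference of 0.0133 (two-sided exact permutation p = 0.800, where the smallest possible is 0.0571). It turned to -0.0206 without RA siLacZ GF120 and to -0.0096 without RA siRNF20 GF117. Numbers follow the genome between genes (Spearman correlation with gene starts from 0.881 to 1 over 44 sets of a chromosome and strand); their order within a gene is stated by none of the sources. This measure was added after the data were seen.

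A different test of exon use gave calls. limma's diffSplice compares each probe set with the others of its gene and takes the spread of all of them together. It counts the probe sets of a gene as independent, although all are read on the same 7 arrays. Its p-values may therefore be too small. It called 596 probe sets (0.225%) in 575 genes (4.03%), 363 higher and 233 lower, where the test on single probe sets called 0; at an unadjusted p under 0.05 it had 12212 against 13322. Of the 596 calls, 478 (80.2%) were in the dimmest quartile of probe sets and 13 in the brightest, and 472 also had an unadjusted p under 0.05 in the first test. The spread of dim probe sets is wider than that of bright ones (median SE 0.382 against 0.132), and diffSplice gives the probe sets of a gene a common spread. Of the probe sets described above it called BAIAP2 3737751 (adjusted p = 3.29e-05), FRY 3484528 (3.12e-05), RNF20 3182509 (0.00544), TXNL1 3809382 (0.00742), LIN28A 2326494 (0.0152), TCF3 3845415 (0.0277) and IRF9 3529710 (0.0448). Under the other alternatives the adjusted p of these 7 was between 0.256 and 1. Beside the H2B and alternative-exon lists, it called a probe set in 2 of 24 hnRNP genes (8.33%). In the list of splicing regulators, many of them tissue-restricted, it did so in 2 of 35 genes (5.71%). Calls were also found in 2 of 49 spliceosome genes (4.08%) and 1 of 21 pluripotency genes (4.76%). The same held for 2 of 18 interferon genes (11.1%) and 5 of 23 reference genes (21.7%). In the SR, polyadenylation and RA target lists there were 0. TUBGCP3 3526188, with the smallest p of the first test, was not called (adjusted p = 0.298, from 0.298 to 1 over its alternatives).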

How the data were processed

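The deposited values are the authors' processed intensities on a linear scale, per the table of array values; background correction, normalization and tools are not given in the sources used here. The table of probe sets and genes names 369498 rows, which are probe sets of the Affymetrix Human Exon 1.0 ST array; 14898 with several symbols were left out. Of 19497 symbols 16426 were current, 2950 were updated and 121 kept. Intensities were taken as log2 with no further normalization. limma 3.58.1 (R 4.3.3, package data.table, version 1.17.8) fitted knockdown and treatment with an intensity trend; p-values are two-sided, with Benjamini-Hochberg adjustment over all probe sets or genes, called below 0.05. RA siLacZ holds 1 array, assumed to vary like the others. Only the fit of siRNF20 exon use was checked on simulated data, with independent noise in each probe set. The check required the fitted size to be right and set no limit on missed or false calls. Named were RNF20, the 6 probe sets of smallest p per direction with one sign in every matched pair, and 3 members per list. Members and lists were chosen with earlier results of these data known. No coordinates are printed, as no build is stated. Figures used Python 3.11.15 and matplotlib 3.10.9.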

Additional observations from a re-analysis of the deposited data

Results flagged for a closer look

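Of 72 use values and 45 levels in the group of 4 siRNF20 arrays, 2 had an array set apart from the other 3 by more than Dixon's 95% critical value (gap to the nearest array over the range), where chance flags about 1 in 20 groups. TARDBP 2320066 had a use of 1.787 in DMSO siRNF20 GF120 against 1.848 to 1.858 in the others, a gap of 0.859 of the range, although all 4 lie within 0.1 log2 units. RNF20 3182517 had a use of 0.142 in DMSO siRNF20 GF117 against 0.894 to 1.007 in the others, a gap of 0.869 of the range.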

How the results depend on the processing

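Exon use gave 0 calls for siRNF20 under every alternative run, each array left out in turn included, except diffSplice (596) and no gene centring (16, all RNF20; chosen after seeing the data). RA exon use was 542, and 321 above the 75th percentile of rows, 940 with the gene mean, 2797 with diffSplice, 147 without the intensity trend, 2 with all 8 arrays, 17443 without gene centring and 22 to 292 with 1 array left out. At the gene level siRNF20 called 1 gene, 0 with all 8 arrays (99 at an unadjusted p under 0.05) and 0 to 1 with 1 array left out (0 without RA siLacZ GF120, 385 unadjusted).

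What the GF numbers stand for is not in the labels, so they were not used to pair arrays in the main fit. They did enter the choice of the probe sets of smallest p per direction. These needed one sign in every siRNF20 and siLacZ pair of the same treatment and GF number. Deviations in use correlated at 0.222, 0.257 and 0.257 between same-numbered arrays of the groups with 2 arrays. With the replicate block, exon use called 0 probe sets (22286 at an unadjusted p under 0.05), RA exon use 1013 and the gene level 44, among them FN1, DPPA4, B2M and STARD10.

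Unadjusted counts for exon use were 5461 with DMSO arrays only, 3822 with all 8 arrays and 5436 without RA siLacZ GF120. Signs turned with all 8 arrays for use of GATM (-0.303), SRRM2 (-0.645), TARDBP (0.457), HNRNPA3 (0.472), STRA6 (-0.065), SOX2 (0.047) and HSP90AB1 (-0.028). So did the levels of MDM2 (0.519), RSRC1 (0.463), SRRM2 (0.407), CLK4 (0.401), MBNL3 (0.287), PTBP2 (1.05), RBBP6 (0.855), PCF11 (0.673), CSTF1 (0.414), ANK2 (0.029), DHRS3 (0.426), RIGI (0.287), EIF2AK2 (0.623) and GATM (0.801). Levels turned with the gene mean for MAP1S (0.083), TEF (0.248), TXNL1 (-0.035) and SNX14 (-0.135), for TXNL1 above the 75th percentile (-0.045) and for SNX14 without the filter (-0.135). IFITM1 turned without the treatment term (-0.059) and, with DMSO arrays only, so did IFITM1 (-0.005), TXNL1 (-0.087) and use of HOXB3 (-0.484). Without gene centring, use turned for RNF20 3182509 (-0.523), RNF20 3182531 (-1.438) and RSRC1 (-0.011), since the value is then the level. With 1 array left out the range crossed 0 for the levels of RIGI (-0.487 to 0.065), MAP1S (-0.096 to 0.014), TEF (-0.519 to 0.014), TXNL1 (-0.076 to 0.389) and IFITM1 (-0.005 to 0.334), for use of HOXB3 (-0.073 to 0.633) and for the end difference (-0.0206 to 0.0444). Where no construction is named, the cause was not tested. Named values and the end difference were each compared with their alternatives, and 1729 such comparisons kept direction and side of the threshold. In 13 comparisons a value passed the threshold only in the alternative, and in 2 it passed only in the main fit. Signal over background limits the dimmest probe sets most.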
